A study of Mus musculus with 6 samples.

Results

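Collagen genes encode the alpha chains of collagen, the main protein family of the extracellular matrix. They were taken here as every gene whose mouse symbol has the form Col, a number, the letter a and a second number, with at least 10 counts summed over the 6 libraries. Of 49315 genes in the tables, 44 had such a symbol and 43 reached the minimum. Col6a4, with 25 counts, was the lowest of those kept, and Col10a1, with 8, was the gene left out. The 43 comprise 11 fibrillar, 8 basement membrane and 24 other collagen genes.

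A collagen molecule is a triple helix of alpha chains, folded in the endoplasmic reticulum and finished outside the cell. Fibrillar types such as I, III and V assemble into the fibrils of tendon, bone and the connective tissue sheaths of muscle. Type IV forms the sheet-like network of basement membranes, which surround each muscle fibre and blood vessel, and type VI forms beaded filaments that link the basement membrane of the fibre to the surrounding matrix. In muscle most collagen is made by resident fibroblast-like cells rather than by the fibres.

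The libraries came from gastrocnemius, a calf muscle, of mice aged 3 months on a mixed C57BL/6 129 background. There were 3 libraries labelled WT and 3 labelled mKO, in which Hnrnpu, the gene of an abundant nuclear RNA-binding protein, was knocked out in muscle specifically. The sources used here do not name the promoter that drove the deletion or the exons removed. The labels number the replicates without naming animals, so the p-values measure only the spread between these libraries.

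Libraries held 32108684 to 42344238 counts assigned to genes. Values are given as CPM, counts per 1e6 scaled by TMM (the trimmed mean of M-values, edgeR's correction for library composition), unless another scale is named. Hnrnpu itself stood at 233, 235 and 247 CPM in WT replicates 1 to 3 and at 209, 210.3 and 205 CPM in mKO replicates 1 to 3, a log2 difference of -0.20 (SE 0.10) that was not called by edgeR's quasi-likelihood test (adjusted p = 0.147). A count over all exons of a gene does not measure the removal of some of them. Skeletal muscle fibre markers such as Ckm and Myh4 were abundant in all libraries, at 120854 to 133957 CPM summed over 8 genes in WT and 52406 to 59643 in mKO. All 8 were called lower by edgeR, where 18.9% of all genes were, and 7 by DESeq2. With library totals in place of TMM 6 of the markers were lower, where 6.75% of all genes were. The TMM factors were 0.845 to 0.859 in WT and 1.15 to 1.20 in mKO. With library totals in place of TMM the median log2 difference of all genes moved by 0.46, from 0.02 to 0.49, and that of the collagen genes moved from 0.34 to 0.81.

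Sequences are shown for Col3a1 and Col8a1, which rose, and for the neighbours Col4a3 and Col4a4, whose low libraries were the same. They are the 250 bases before the start of Col3a1 (chr1:45311288-45311537, plus strand) and of Col8a1 (chr16:57754738-57754987, minus strand), and the 71 bases between the diverging genes Col4a4 and Col4a3 (chr1:82586850-82586920, minus strand, the direction of Col4a4). All were taken from RefSeq, build GRCm38.p6, and capitals mark the motif TATAAA in Col3a1 and the motif GGGCGG, on either strand, in Col8a1.
Col3a1: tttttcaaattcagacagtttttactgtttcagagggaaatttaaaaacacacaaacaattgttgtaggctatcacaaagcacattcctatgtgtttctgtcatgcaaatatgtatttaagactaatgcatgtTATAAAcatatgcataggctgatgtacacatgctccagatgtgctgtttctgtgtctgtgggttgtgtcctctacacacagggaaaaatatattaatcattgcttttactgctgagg
Col8a1: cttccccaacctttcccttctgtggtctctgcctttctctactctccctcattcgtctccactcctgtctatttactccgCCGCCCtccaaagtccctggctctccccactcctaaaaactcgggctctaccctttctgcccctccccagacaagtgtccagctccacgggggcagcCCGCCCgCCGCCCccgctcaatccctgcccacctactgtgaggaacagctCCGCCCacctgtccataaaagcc
Col4a4 to Col4a3: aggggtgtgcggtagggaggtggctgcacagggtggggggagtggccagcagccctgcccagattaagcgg
In Col3a1 the sequence TATAAA lay 117 bases before the start. In Col8a1 the motif GGGCGG was found as its reverse complement, spelled CCGCCC, at 170, 73, 66 and 23 bases before the start. Over the 32851 RefSeq promoters of the table, read on both strands in the 250 bases before the start, 12.4% held TATAAA, 32.7% GGGCGG, 33.8% CCAAT and 4.46% TGAGTCA. Of 37 promoters matched to 34 of the 43 collagen genes, 4 held TATAAA, 22 GGGCGG, 13 CCAAT and 1 TGAGTCA. The Col4a4 to Col4a3 stretch, 69.0% G or C, held none of these 4 motifs. A match is only a run of letters and was not tied to the binding of any factor.

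Collagen RNA took a larger share of the mKO libraries. The 43 genes together made up 0.164%, 0.179% and 0.145% of all counts in WT replicates 1 to 3 and 0.335%, 0.342% and 0.36% in mKO replicates 1 to 3. Every mKO library lay above every WT library, at 2.12 times the WT mean (exact two-sided permutation p = 0.1, the smallest that 3 against 3 libraries allow). In CPM with TMM scaling the sum was 1910 ± 195 in WT and 2942 ± 166 in mKO (SD, n = 3), a ratio of 1.54 (exact permutation p = 0.1). In bulk tissue more RNA per cell and more cells of a type cannot be told apart.

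The make-up of collagen RNA also differed, with a larger fibrillar and a smaller basement membrane share in mKO. Counts per kilobase of exon were summed by class and divided by the sum over all 43 genes within each library, a share that needs no scaling between libraries. The fibrillar share was 49.4%, 48.1% and 46.6% in WT replicates 1 to 3 and 56.4%, 59.1% and 57.3% in mKO replicates 1 to 3. Basement membrane collagens made up 22.8% ± 1.55 of collagen RNA in WT and 16.3% ± 0.385 in mKO (SD, n = 3), and the other collagens 29.1% ± 0.117 and 26.1% ± 1.05. For all 3 classes the groups did not overlap (exact permutation p = 0.1 each). Within the other class, type VI made up 20.1% ± 0.768 and 16.6% ± 0.345. The shares sum to the whole and are not independent results. Col3a1 alone gained 8.65 of the 9.58 percentage points that the fibrillar class gained, and a class can have a smaller share without a lower level, as Col4a1, Col4a2, Col6a1, Col6a2 and Col6a3 all had higher mean CPM in mKO.

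**Figure D1:**
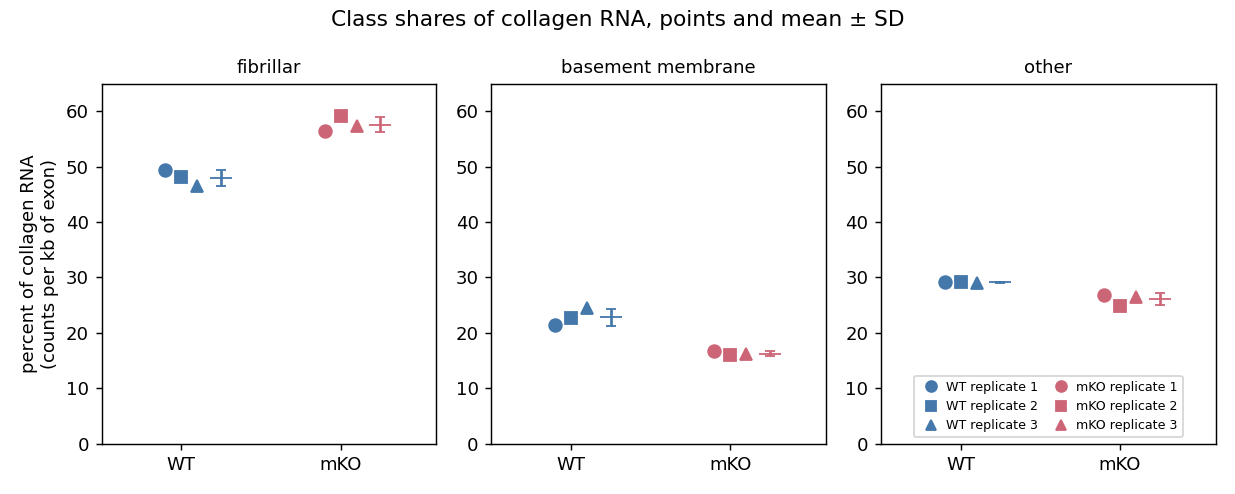
Share of collagen RNA, in percent of counts per kilobase of exon within each library, for fibrillar, basement membrane and other collagens. Points are single libraries of WT (blue) and mKO (red), and bars are the mean ± SD of 3 libraries. The fibrillar share is between 46.6% and 49.4% in WT and between 56.4% and 59.1% in mKO, and the other 2 classes are lower in every mKO library.

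The order of levels among the genes was led by Col3a1 in both groups. Per kilobase of exon, Col3a1 stood at 49.6 ± 4.22 CPM in WT and 104 ± 14.4 in mKO (SD, n = 3). Col4a1 (21.6 ± 2.40 CPM per kilobase) and Col6a1 (20.9 ± 2.47) came next in WT and did not differ beyond their spread, followed by Col1a1 (16.2 ± 5.54), Col4a2 (15.5 ± 1.90) and Col1a2 (13.6 ± 3.02). In mKO, Col1a1 was second at 26.9 ± 10.7 CPM per kilobase, within its spread of Col4a1 at 25.5 ± 1.66 and Col6a1 at 24.1 ± 1.596. Col5a2 moved from rank 7 at 11.9 ± 0.748 to rank 5 at 22.2 ± 1.66. Col15a1 moved from rank 10 to rank 13, and Col8a1 from rank 17 to rank 12.

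Of the 43 genes, 40 had enough counts to be tested gene by gene. By edgeR's quasi-likelihood test with Benjamini-Hochberg adjustment over all 16650 genes tested, at an adjusted p under 0.05, 10 collagen genes were higher in mKO, 4 were lower and 26 were not called. Over all genes tested, 18.2% were called higher and 18.9% lower, 37% in all, beside 25% and 10% of the collagen genes; whether these shares differ was not tested. The groups did not overlap for 10 collagen genes that were higher and 3 that were lower, against 25.3% and 24% of all genes. The median log2 difference was 0.34 over the 40 collagen genes and 0.02 over all genes. With library totals in place of TMM, 28 collagen genes were called higher and 2 lower, where 49% of all genes were called higher and 6.75% lower.

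**Figure D2:**
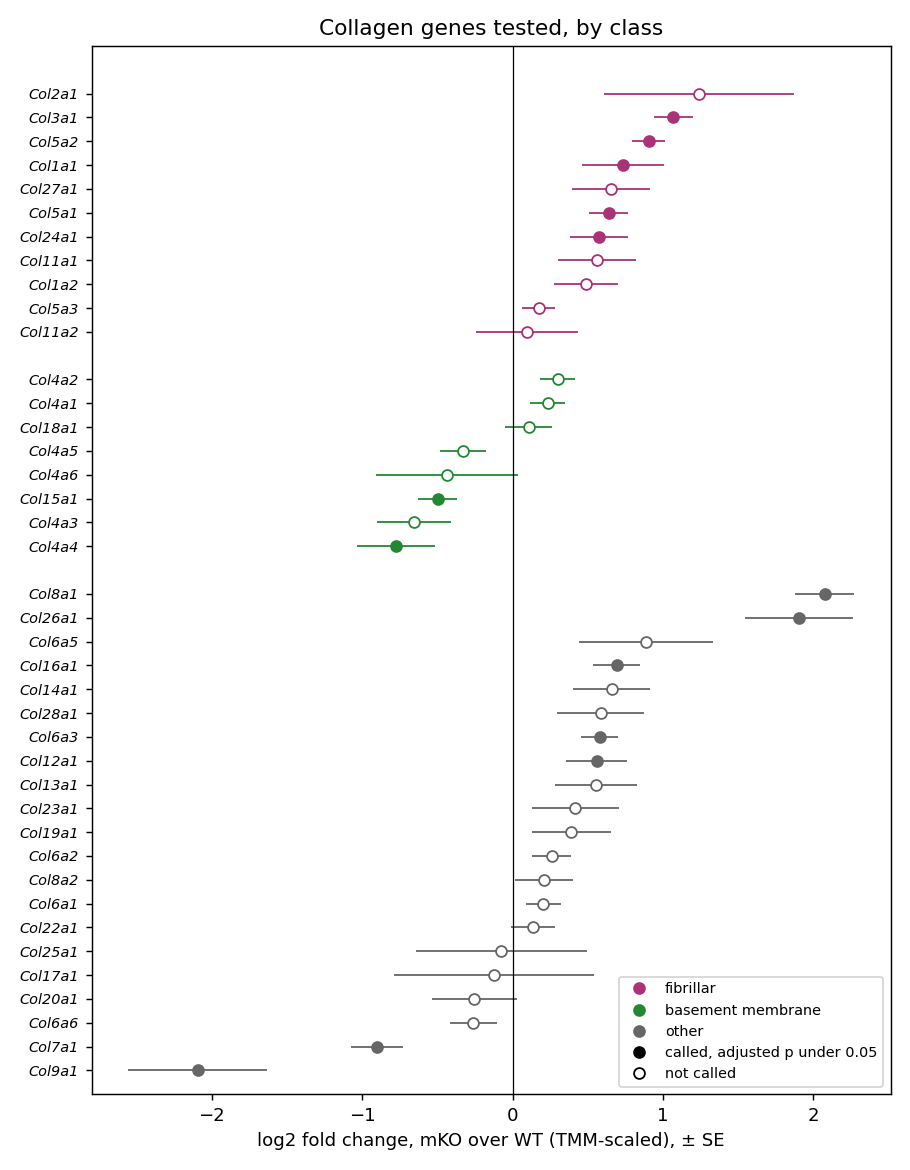
Log2 fold change, mKO over WT with TMM scaling, of the 40 collagen genes tested, with the SE as a horizontal bar. Genes are grouped as fibrillar, basement membrane and other, and filled points were called at an adjusted p under 0.05. All 11 fibrillar genes lie to the right of 0, while the basement membrane genes lie on both sides; with library totals Col4a5 and Col4a6 also move to the right of 0.

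All 11 fibrillar genes had a positive log2 difference, 0.09 to 1.24 with a median of 0.64, and 5 of them rose. Of all 16650 genes tested, 8609 had a positive log2 difference and 18.2% were called higher. With library totals 10 fibrillar genes were called higher, where 49% of all genes were. None of the fibrillar genes was called lower by edgeR, DESeq2 or limma-voom. At an unadjusted p under 0.05 none was lower and 8 were higher. DESeq2 and limma-voom each called 4 higher. The count called higher was 3 without WT replicate 1, WT replicate 3, mKO replicate 2 or mKO replicate 3, and 8 without mKO replicate 1.

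Col3a1 (chr1:45311538-45349706, plus strand) encodes the chain of type III collagen, a homotrimer of thin, extensible fibrils. It stood at 475, 533 and 453 CPM in WT replicates 1 to 3 and at 1027, 876 and 1159.6 CPM in mKO replicates 1 to 3. Every mKO library was well above every WT library, and the gene rose 2.10-fold (log2 1.07, SE 0.13, edgeR adjusted p = 4.80e-05). Its share of collagen RNA per kilobase went from 21.7% ± 0.585 to 30.3% ± 3.49 (SD, n = 3), with no overlap of groups (exact permutation p = 0.1).

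Type V collagen sets the diameter of fibrils and is laid down within them. Its chain gene Col5a2 (chr1:45374321-45503282, minus strand) stood at 121, 106 and 114 CPM in WT replicates 1 to 3 and at 212, 197 and 229 CPM in mKO replicates 1 to 3. The groups were far apart, and Col5a2 rose 1.87-fold (log2 0.90, SE 0.11, edgeR adjusted p = 5.25e-05). Col5a1 (chr2:27886425-28039514, plus strand) stood at 54.5, 72.4 and 60.3 CPM in WT and at 98.2, 87.6 and 106 CPM in mKO. It also rose without overlap (log2 0.64, SE 0.13, edgeR adjusted p = 0.00190). The remaining type V chain gene, Col5a3, was at 54.1 ± 4.61 CPM in WT and 61.0 ± 2.32 in mKO (SD, n = 3) and was not called (log2 0.17, SE 0.11). The ratio of Col5a3 to Col5a2 per kilobase was 0.675 ± 0.101 in WT and 0.405 ± 0.0258 in mKO, without overlap (exact permutation p = 0.1, or 0.28 after Benjamini-Hochberg adjustment over 14 chain ratios, which were chosen after values had been seen).

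Type I collagen, the main fibril protein of tendon, bone and fascia, is built from the products of Col1a1 and Col1a2. Col1a1 (chr11:94936224-94953042, plus strand) stood at 114, 138 and 66.9 CPM in WT replicates 1 to 3 and at 123, 256 and 151 CPM in mKO replicates 1 to 3. WT replicate 3 was lowest, mKO replicate 2 was highest, and the groups overlapped. The gene was called higher at the edge of the threshold (log2 0.73, SE 0.27, edgeR adjusted p = 0.0486). In edgeR the call was lost when mKO replicate 2 was left out (log2 0.37, adjusted p = 0.260), and likewise for WT replicate 3 (0.48, 0.186), WT replicate 1 (0.78, 0.0692) and mKO replicate 3 (0.83, 0.0537). DESeq2 on all libraries did not call it (log2 0.73, adjusted p = 0.213). Over the 13 alternatives its adjusted p ran from 1.43e-07 to 0.260. Col1a2 stood at 199.9, 179 and 127 CPM in WT and at 177, 327 and 206 CPM in mKO, with the same libraries at the extremes, and was not called (log2 0.49, SE 0.21, edgeR adjusted p = 0.0918). The ratio of Col1a1 to Col1a2 per kilobase was 1.18 ± 0.2497 in WT and 1.40 ± 0.0836 in mKO (exact permutation p = 0.3). Unlike Col3a1, Col1a1 kept an overlapping share of collagen RNA, 6.96% ± 1.78 in WT and 7.87% ± 3.16 in mKO (exact permutation p = 0.8).

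**Figure D3:**
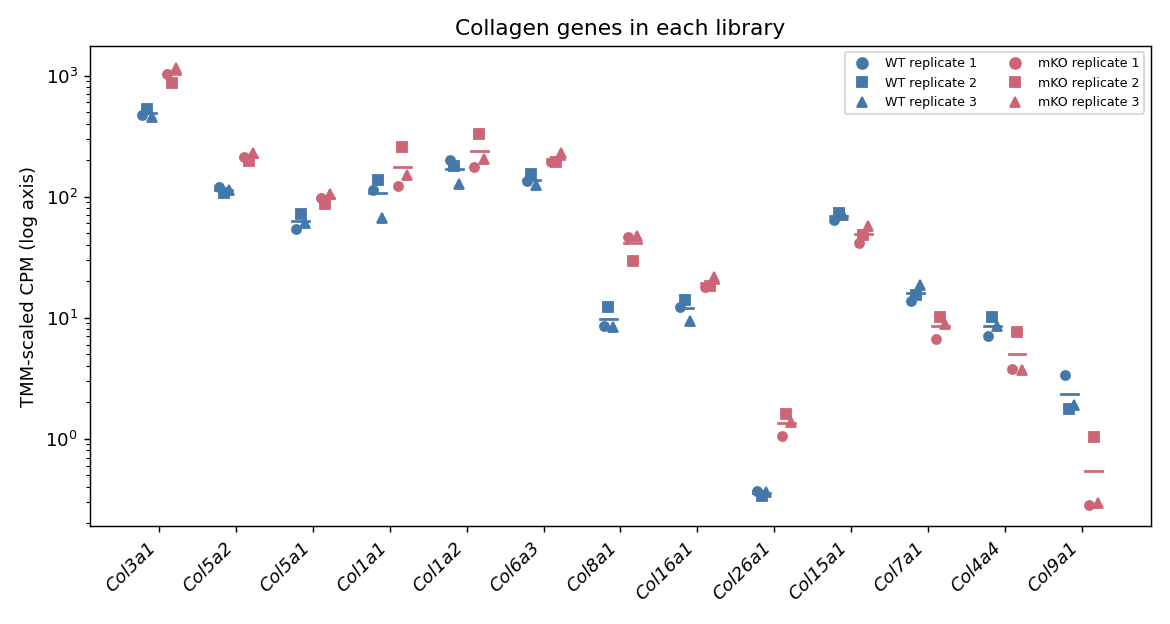
TMM-scaled CPM (log axis) of 13 collagen genes in each library, with WT in blue and mKO in red, marker shapes for replicates 1 to 3 and short lines at the group means. Col3a1, Col5a2, Col5a1, Col6a3, Col8a1, Col16a1 and Col26a1 are higher in every mKO library than in any WT library, Col15a1, Col7a1 and Col9a1 are lower in every mKO library, and Col1a1, Col1a2 and Col4a4 overlap.

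The libraries of mKO differed among themselves in collagen genes of several classes. In all, mKO replicate 2 was the highest mKO library for 15 of the 40 genes tested (37.5%), beside 35.2% of all genes. Of these, Col4a3, Col4a4, Col4a5, Col7a1, Col8a2 and Col26a1 are neither fibrillar nor fibril-associated. mKO replicate 2 was the highest mKO library for Col1a1, Col1a2, Col2a1, Col11a1 and Col11a2 among the fibrillar genes and for Col9a1, Col12a1, Col19a1 and Col22a1 among the fibril-associated ones tested, and the lowest for Col3a1, Col5a1, Col5a2 and Col5a3 among the fibrillar genes. Col2a1, the cartilage fibril gene, stood at 0.27, 0.18 and 0.11 CPM in WT and at 0.24, 0.83 and 0.24 CPM in mKO (log2 1.24, SE 0.63, edgeR adjusted p = 0.144). Col11a1, a type XI chain gene, stood at 16.2, 14.4 and 8.44 CPM in WT and at 12.6, 26.1 and 18.9 CPM in mKO (log2 0.56, SE 0.26, adjusted p = 0.108), and Col11a2 was 2.60 times as high in mKO replicate 2 as in the mean of the other mKO libraries. With limma-voom the log2 difference of Col11a2 was -0.0033, and without mKO replicate 2 it was -0.52 in edgeR. Neither type XI gene passed the test on all libraries, and Col11a1 passed it without mKO replicate 1 (log2 0.79, adjusted p = 0.0289).

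Of 10 markers of tenocytes, the fibroblasts of tendon, Fmod, Chad, Comp and Cilp2 were highest in mKO replicate 2. They were chosen after their values were seen, and values per library of the other markers are not given here. Fmod stood at 129, 105 and 63.0 CPM in WT replicates 1 to 3 and at 70.7, 163 and 70.2 CPM in mKO replicates 1 to 3. Chad stood at 5.37, 8.36 and 2.68 CPM in WT and at 2.20, 17.5 and 2.35 CPM in mKO, and Comp and Cilp2 were also highest in mKO replicate 2. Over the 10 tenocyte markers, none of them at 0, the summed level was 359 to 483 CPM in WT, lowest in WT replicate 3, and 611 to 748 CPM in mKO, highest in mKO replicate 2. Thbs4 and Tnmd rose, 8 of the 10 were not called and none fell (5 higher with library totals). Of all genes, 18.2% were higher and 18.9% lower (49% higher with library totals). The part of tendon tissue in the type I values was not tested.

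**Figure D4:**
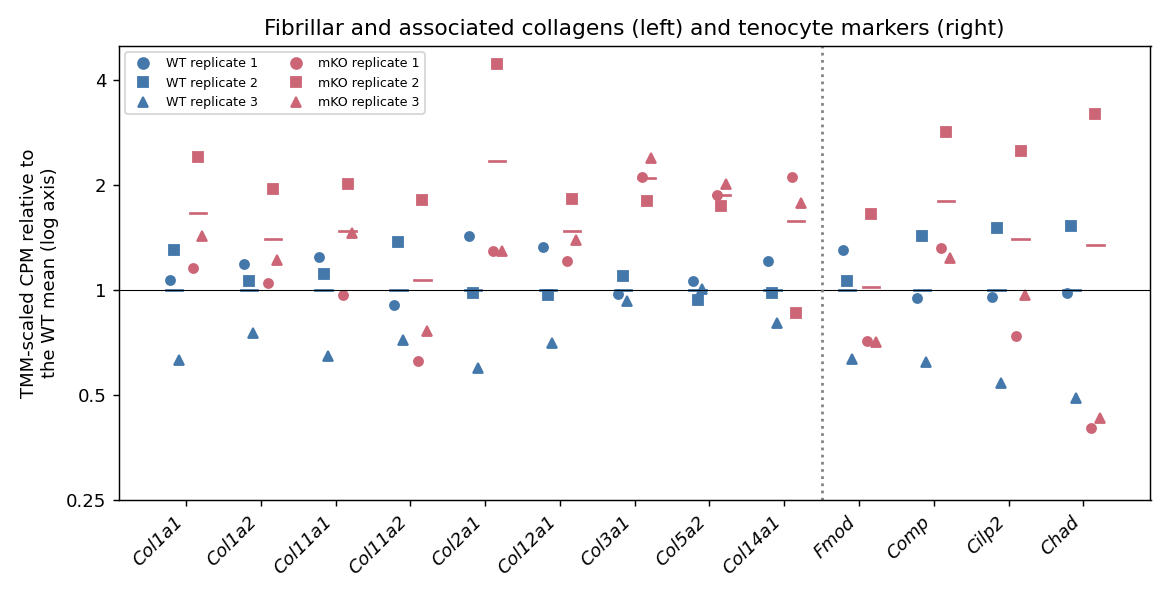
TMM-scaled CPM relative to the WT mean (log axis) of 9 fibrillar and fibril-associated collagen genes and, right of the dotted line, 4 tenocyte markers, in each library of WT (blue) and mKO (red). The 4 markers were chosen from 10 after their values were seen. Col1a1, Col1a2, Col11a1, Col11a2, Col2a1 and Col12a1 are highest in mKO replicate 2 (red squares), as are Fmod, Comp, Cilp2 and Chad, while Col3a1, Col5a2 and Col14a1 are lowest there among the mKO libraries.

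Col24a1 and Col27a1 are lowly expressed fibrillar genes. Col24a1 stood at 6.68, 7.05 and 6.51 CPM in WT replicates 1 to 3 and at 7.16, 10.3 and 12.7 CPM in mKO replicates 1 to 3. It rose by a log2 of 0.57 (SE 0.19, edgeR adjusted p = 0.0335), but the lowest mKO value was close to the highest WT value. The call was lost with limma-voom and without any one library other than mKO replicate 1, and without mKO replicate 3 the log2 difference was 0.38 (edgeR adjusted p = 0.178). Col27a1 was at 1.80 ± 0.306 CPM in WT and 2.84 ± 0.748 in mKO (SD, n = 3) and was not called (edgeR adjusted p = 0.0659).

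The 8 basement membrane genes did not move as a group. None was called higher by edgeR and 2 fell, with a median log2 difference of -0.38; at an unadjusted p under 0.05, 1 was higher and 3 were lower, as by DESeq2 and by limma-voom with adjustment. With library totals in place of TMM, 3 were called higher and none lower. Without WT replicate 2, 2 were called higher and 1 lower, and without WT replicate 3, mKO replicate 1 or mKO replicate 3, 1 was called lower. The shares of all genes were 18.2% called higher and 18.9% lower with TMM, and 49% and 6.75% with library totals.

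Col4a1 and Col4a2 encode the chains of the common type IV network and start head to head on chromosome 8, where their gene models share 22 bases. Col4a1 (chr8:11198423-11312826, minus strand) stood at 148, 182 and 155 CPM in WT replicates 1 to 3 and at 196, 176 and 198 CPM in mKO replicates 1 to 3. The groups overlapped through WT replicate 2 (log2 0.24, SE 0.12, edgeR adjusted p = 0.134). Col4a2 stood at 95.7, 117 and 95.3 CPM in WT and at 124, 125 and 130.4 CPM in mKO, without overlap, and was not called (log2 0.30, SE 0.12, edgeR adjusted p = 0.0587). DESeq2 gave Col4a2 an adjusted p of 0.0476 and limma-voom 0.0439, and without WT replicate 2 edgeR called both genes (adjusted p = 0.0345 for Col4a1 and 0.00949 for Col4a2). The ratio of Col4a1 to Col4a2 per kilobase was close to constant, at 1.37, 1.37 and 1.44 in WT and 1.40, 1.25 and 1.35 in mKO (exact permutation p = 0.4).

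Col4a3 and Col4a4, which with Col4a5 form the network of specialised basement membranes such as that of the kidney glomerulus and the synapse of nerve and muscle, start 72 bases apart on chromosome 1, around the 71 bases shown above. Col4a4 (chr1:82448423-82586849, minus strand) stood at 7.11, 10.1 and 8.61 CPM in WT replicates 1 to 3 and at 3.79, 7.61 and 3.67 CPM in mKO replicates 1 to 3. mKO replicate 2 lay among the WT values and the other 2 mKO libraries far below them. The gene fell by 0.77 on the log2 scale (SE 0.26, edgeR adjusted p = 0.0327), and the call was lost without WT replicate 2, WT replicate 3, mKO replicate 1 or mKO replicate 3 (adjusted p 0.0783 to 0.124) and with library totals (0.321). Col4a3 (chr1:82586921-82722059, plus strand) stood at 4.87, 5.36 and 5.95 CPM in WT and at 2.64, 4.96 and 2.67 CPM in mKO, again with mKO replicate 2 among the WT values and the other mKO libraries below them. It missed the threshold (log2 -0.65, SE 0.24, edgeR adjusted p = 0.0525), but DESeq2 (adjusted p = 0.0442), limma-voom (0.0323), relative log expression factors (0.0488) and no low-count filter (0.0116) called it lower. Without mKO replicate 2 the log2 differences were -1.20 for Col4a4 (edgeR adjusted p = 0.000938) and -1.02 for Col4a3 (0.00326). The ratio of Col4a3 to Col4a4 per kilobase was 0.677 ± 0.0963 in WT and 0.737 ± 0.0408 in mKO (SD, n = 3, exact permutation p = 0.4). An antisense gene, C430014B12Rik, shares 5.65% of the exon bases of Col4a3 and had 84 counts in all, so reads there cannot be assigned to one of them if strand was not used.

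Col4a5, the remaining partner of that network, stood at 8.65, 9.83 and 9.90 CPM in WT and at 6.56, 8.66 and 7.36 CPM in mKO, where mKO replicate 2 only just exceeded the lowest WT value (log2 -0.33, SE 0.15, edgeR adjusted p = 0.111). With library totals its log2 difference was 0.13. Per kilobase, the ratio of Col4a5 to Col4a1 was 0.0654 ± 0.00550 in WT and 0.0444 ± 0.00920 in mKO, and that of Col4a4 to Col4a1 was 0.0373 ± 0.00305 and 0.0190 ± 0.00990 (SD, n = 3). Neither ratio overlapped between groups (exact permutation p = 0.1 each, 0.28 after adjustment over the 14 ratios). Col4a6 was under 1.1 CPM in all libraries and was not called.

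Col15a1 and Col18a1 encode the multiplexins, collagens of the outer basement membrane zone of fibres and vessels. Col15a1 (chr4:47208161-47313167, plus strand) stood at 64.4, 73.2 and 69.9 CPM in WT replicates 1 to 3 and at 41.2, 48.6 and 57.2 CPM in mKO replicates 1 to 3. All mKO libraries were below all WT libraries, and the gene fell by 0.50 on the log2 scale (SE 0.13, edgeR adjusted p = 0.00884). The call held without each single library (adjusted p up to 0.0401) and was lost with library totals (log2 -0.04, adjusted p = 0.820). Its share of collagen RNA per kilobase was 4.78% ± 0.478 in WT and 2.24% ± 0.247 in mKO (SD, n = 3), a share that is also lowered by the rise of other collagens and so adds no support to the call. Col18a1 was at 9.03 ± 0.610 CPM in WT and 9.73 ± 1.61 in mKO and was not called (edgeR adjusted p = 0.632).

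**Figure D5:**
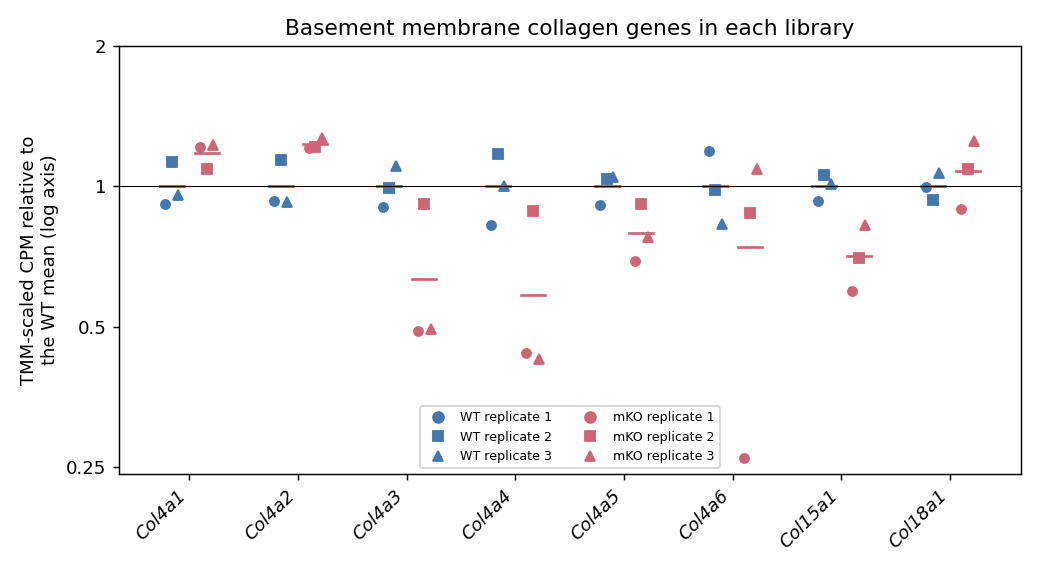
TMM-scaled CPM of the 8 basement membrane collagen genes relative to their WT mean (log axis) in each library of WT (blue) and mKO (red), with short lines at the group means. Col15a1 is below the WT range in all 3 mKO libraries, Col4a3 and Col4a4 are low in mKO replicates 1 and 3 and near WT in mKO replicate 2, and Col4a1 and Col4a2 lie above the WT mean in all mKO libraries.

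Vessel markers were lower in the same libraries. Of 8 endothelial markers 7 fell and none rose, where 18.9% of all genes fell, with a summed level of 252 to 332 CPM in WT and 165 to 179 CPM in mKO. With library totals 2 of the 8 were called lower and none higher, where 6.75% of all genes were called lower. Of 8 markers of mural cells, the contractile cells of vessel walls, 3 fell, 1 rose and 4 were not called, where 18.2% of all genes rose. With library totals 2 mural markers were lower and 2 higher, where 6.75% and 49% of all genes were. The summed mural level was 694 to 755 CPM in WT and 374 to 407 CPM in mKO. None of these markers was at 0. Their part in the basement membrane values was not tested.

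Among partner genes of basement membranes (laminin chains, nidogens, perlecan and agrin), 1 of 10 fell and none rose with TMM scaling, where 18.9% and 18.2% of all genes did. With library totals, where 49% of all genes were called higher, 8 of the 10 were higher and none lower. The gene that fell, Lamb1, is a laminin beta chain gene, at 65.2 ± 3.42 CPM in WT and 50.4 ± 3.95 in mKO (SD, n = 3, log2 -0.37, SE 0.11, edgeR adjusted p = 0.0165). With TMM, limma-voom and an unadjusted p under 0.05 gave none higher either, nor did DESeq2.

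Of the 24 other collagen genes 21 were tested, and 5 rose, 2 fell and 14 were not called, with a median log2 difference of 0.39. Without WT replicate 2, 8 were called higher, and with library totals 15 were higher and 2 lower. The shares of all genes were 18.2% called higher and 18.9% lower with TMM, and 49% and 6.75% with library totals. The type VI chains Col6a1, Col6a2 and Col6a3 assemble together in equal parts. Col6a3 (chr1:90765923-90843971, minus strand) stood at 133, 154 and 124 CPM in WT replicates 1 to 3 and at 194, 193 and 227 CPM in mKO replicates 1 to 3. The groups did not overlap and Col6a3 rose 1.49-fold (log2 0.58, SE 0.12, edgeR adjusted p = 0.00247).

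Its partners moved less. Col6a1 stood at 88.3, 104 and 83.0 CPM in WT and at 98.4, 106 and 112 CPM in mKO (log2 0.20, SE 0.12, edgeR adjusted p = 0.196). Col6a2 stood at 86.1, 115 and 86.3 CPM in WT and at 111, 111 and 123 CPM in mKO (log2 0.26, SE 0.13, adjusted p = 0.139). Both overlapped between groups through WT replicate 2, and without that library edgeR called both higher (adjusted p = 0.0499 for Col6a1 and 0.0110 for Col6a2). The ratio of Col6a3 to Col6a1 per kilobase was 0.548 ± 0.00507 in WT and 0.710 ± 0.0377 in mKO, without overlap (exact permutation p = 0.1, 0.28 after adjustment over the 14 ratios), while that of Col6a1 to Col6a2 was 1.83 ± 0.115 and 1.75 ± 0.0673 (p = 0.4). The chains that can replace Col6a3 were low: Col6a6 was at 19.3 ± 2.39 CPM in WT and 16.1 ± 3.14 in mKO, Col6a5 was under 3 CPM throughout, neither was called, and Col6a4 had 12 counts in WT and 13 in mKO.

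Col8a1, a short-chain collagen of vessel walls and cornea, had the largest log2 rise among the collagen genes tested. It (chr16:57624258-57754737, minus strand) stood at 8.61, 12.3 and 8.36 CPM in WT replicates 1 to 3 and at 46.5, 29.6 and 47.2 CPM in mKO replicates 1 to 3. The lowest mKO library, replicate 2, was above every WT library, and the rise was 4.21-fold (log2 2.07, SE 0.20, edgeR adjusted p = 7.45e-06). Col8a2, the other type VIII chain gene, was at 6.27 ± 1.51 CPM in WT and 7.22 ± 0.755 in mKO and was not called (log2 0.21, SE 0.19). The ratio of Col8a1 to Col8a2 per kilobase was 1.13, 1.44 and 1.602 in WT and 6.25, 3.24 and 5.85 in mKO.

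Fibril-associated collagens with interrupted helices (FACIT) sit on the surface of fibrils. Of 7 tested, 2 rose and 1 fell, beside 18.2% and 18.9% of all genes. Col16a1 (chr4:130047840-130099283, plus strand) stood at 12.3, 14.1 and 9.39 CPM in WT replicates 1 to 3 and at 17.9, 18.2 and 21.8 CPM in mKO replicates 1 to 3, without overlap (log2 0.69, SE 0.16, edgeR adjusted p = 0.00407). Col12a1, abundant in tendon and fascia, stood at 81.2, 59.2 and 43.0 CPM in WT and at 74.0, 111 and 84.7 CPM in mKO. It was called higher despite overlap (log2 0.56, SE 0.20, edgeR adjusted p = 0.0480), and the call was lost without WT replicate 2, WT replicate 3, mKO replicate 2 or mKO replicate 3 (adjusted p 0.0752 to 0.192) and with relative log expression factors (0.05003).

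Col14a1, which marks connective tissue fibroblasts, ran the other way in mKO replicate 2. It stood at 41.3, 33.4 and 27.3 CPM in WT and at 71.6, 29.1 and 60.2 CPM in mKO, so that 2 mKO libraries were above all WT libraries and replicate 2 was among them (log2 0.66, SE 0.26, edgeR adjusted p = 0.0603). Without mKO replicate 2 it was called higher (log2 0.96, adjusted p = 0.000958). Markers of fibro-adipogenic progenitors, the fibroblast-like stem cells of muscle, summed to 2002 to 2305 CPM in WT and 1645 to 2167 CPM in mKO, lowest in mKO replicate 2. Of these 10 markers, none at 0, Mfap5 rose, Smoc2 fell and 8 were not called, beside 18.2% of all genes higher and 18.9% lower. With library totals 6 were higher and none lower, where 49% and 6.75% of all genes were.

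Type IX collagen coats the type II fibrils of cartilage. Its chain gene Col9a1 (chr1:24177610-24252684, plus strand) had 100, 58 and 68 counts in WT replicates 1 to 3 and 13, 46 and 11 counts in mKO replicates 1 to 3. In CPM these were 3.34, 1.78 and 1.90 in WT and 0.29, 1.03 and 0.30 in mKO, all mKO libraries below all WT libraries. Col9a1 fell by 2.09 on the log2 scale (SE 0.46, edgeR adjusted p = 0.00347), and by 2.98 without mKO replicate 2. The partner chain genes were too low for the test. Col9a2 had 34 counts in WT and 4 in mKO, 10.98 times as many in WT per scaled library (exact binomial 95% interval 3.92 to 42.6, counting error only). Col9a3 went the other way, with 10 counts in WT and 31 in mKO (ratio of mKO to WT 2.40, interval 1.15 to 5.49), and 6.07% of its exon bases are shared with the opposite-strand gene Tcfl5. Among 10 cartilage and bone markers, Matn1 and Bglap had no counts in any library. Of the 3 that could be tested Sox9 and Dmp1 rose and Phex fell, beside 18.2% of all genes higher and 18.9% lower. DESeq2 and library totals each called 2 markers higher and none lower. With library totals 49% of all genes were called higher and 6.75% lower. The summed level of the 10 markers was 3.47 to 4.41 CPM in WT and 7.79 to 10.2 CPM in mKO. Their part in the type II and type IX values was not tested.

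Col7a1 encodes the anchoring fibrils that fasten basement membrane to the underlying matrix. It (chr9:108953586-108984875, plus strand) stood at 13.8, 15.4 and 18.6 CPM in WT replicates 1 to 3 and at 6.65, 10.1 and 8.85 CPM in mKO replicates 1 to 3. The groups did not overlap, and Col7a1 fell by 0.90 on the log2 scale (SE 0.17, edgeR adjusted p = 0.00135). Col26a1, a little-studied collagen gene, had 11, 11 and 13 counts in WT and 48, 71 and 51 counts in mKO. It rose without overlap, from 0.356 ± 0.0165 to 1.34 ± 0.270 CPM (SD, n = 3, log2 1.90, SE 0.36, edgeR adjusted p = 0.00118). Col28a1, which is made by Schwann cells, was at 1.66 ± 0.110 CPM in WT and 2.498 ± 0.890 in mKO and was not called (edgeR adjusted p = 0.134). Schwann cell markers summed to 49.8 to 57.4 CPM in WT and 34.7 to 84.3 CPM in mKO. None of 8 was called by edgeR, DESeq2 or limma-voom or passed an unadjusted p under 0.05, where edgeR called 37% of all genes. With library totals 1 marker was higher, where 49% of all genes were.

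Transmembrane collagens stay anchored in the cell surface. None of the 4 tested was called by edgeR, DESeq2 or limma-voom, and none passed an unadjusted p under 0.05. By edgeR 37% of all genes were called in either direction. Without WT replicate 2 edgeR called Col13a1 (adjusted p = 0.0327) and Col23a1 (0.0241) higher. With library totals edgeR also called both higher, where 49% of all genes were. Col13a1, which helps to maintain the neuromuscular junction, was at 1.73 ± 0.546 CPM in WT and 2.54 ± 0.485 in mKO (SD, n = 3, log2 0.55, SE 0.27, edgeR adjusted p = 0.131). Col23a1, Col17a1 and Col25a1 had means under 3 CPM in both groups.

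Of the 20 enzymes and chaperones that modify and fold collagen chains in the cell, 4 were higher and 3 lower, shares near those of all genes (18.2% and 18.9%). With library totals 13 were higher and 1 lower, where 49% and 6.75% of all genes were. All 20 were tested by edgeR, P4ha3 among them, with log2 differences of -1.20 to 5.17. P4ha3, a catalytic subunit of prolyl 4-hydroxylase, had 2 counts summed over the WT libraries and 106 over the mKO libraries. Its values per library are not given here, and the ratio of the sums was 41.0 per scaled library. The exact binomial 95% interval was 11.1 to 343, which covers counting error only and not the spread between libraries. P4ha2, another such subunit, stood at 25.2 ± 2.43 CPM in WT and 10.99 ± 2.83 in mKO (SD, n = 3), a fall by edgeR's test (log2 -1.20, SE 0.18, adjusted p = 0.000202). Plod2, a lysyl hydroxylase that directs cross-link type, rose from 7.28 ± 0.209 CPM to 13.5 ± 2.36 (log2 0.89, SE 0.16, adjusted p = 0.000694). Colgalt2, a collagen galactosyltransferase, fell by 0.72 on the log2 scale (SE 0.18, adjusted p = 0.00668).

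Of 13 tested genes that trim procollagen or cross-link fibrils outside the cell, 5 rose and none fell; none was lower at an unadjusted p under 0.05, and DESeq2 and limma-voom called none lower. With library totals 10 were higher. Of all genes, 18.2% were called higher and 18.9% lower with TMM, and 49% were called higher with library totals. Lox, lysyl oxidase, stood at 21.2, 16.4 and 17.8 CPM in WT replicates 1 to 3 and at 43.7, 38.0 and 36.1 CPM in mKO replicates 1 to 3, a clear separation (log2 1.09, SE 0.13, edgeR adjusted p = 3.88e-05). Its relatives Loxl1 (log2 0.93, SE 0.18, adjusted p = 0.00137) and Loxl2 (log2 0.69, SE 0.14, adjusted p = 0.00201) also rose. Adamts14, a procollagen N-proteinase, rose from 1.02 ± 0.244 to 3.02 ± 0.434 CPM (log2 1.56, SE 0.26, adjusted p = 0.000539).

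Genes of proteins that bind collagen fibrils and shape them gave 5 higher and none lower of 14, with 1 lower at an unadjusted p under 0.05 and none by DESeq2 or limma-voom. With library totals 11 were higher and none lower. Of all genes, 18.2% were called higher and 18.9% lower with TMM, and 49% and 6.75% with library totals. Postn, periostin, stood at 28.8, 30.2 and 30.8 CPM in WT and at 299.7, 160.4 and 241 CPM in mKO, lowest among the mKO libraries in replicate 2 (log2 2.96, SE 0.19, edgeR adjusted p = 4.67e-07). Bgn, the proteoglycan biglycan, rose from 35.7 ± 2.08 to 79.7 ± 11.8 CPM, and Fn1, fibronectin, from 214 ± 22.9 to 452 ± 62.6 CPM (SD, n = 3, adjusted p = 2.18e-05 and 5.07e-05). Sparc, a collagen chaperone of the matrix, rose by a log2 of 0.57 (SE 0.15, adjusted p = 0.0102).

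Of 9 collagen receptors 3 were higher and 2 lower with TMM scaling, beside 18.2% and 18.9% of all genes, and 6 were higher and none lower with library totals. Lair1, an inhibitory collagen receptor of immune cells, rose from 1.41 ± 0.400 to 4.76 ± 0.912 CPM (SD, n = 3, log2 1.75, SE 0.26, edgeR adjusted p = 0.000198), and Mrc2, the endocytic collagen receptor, by a log2 of 0.43 (SE 0.11, adjusted p = 0.0109). The integrin subunit genes Itga1 and Itgb1, which together form a receptor for collagen IV, fell by 0.68 (SE 0.11, adjusted p = 0.000350) and 0.46 (SE 0.11, adjusted p = 0.00669) on the log2 scale. All 8 macrophage markers rose, where 18.2% of all genes did, and all 8 were higher with library totals, where 49% were. Their summed level was 254 to 306 CPM in WT and 519.8 to 875 CPM in mKO. Their part in the Lair1 value, or in that of any collagen gene, was not tested.

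Of 9 genes of collagen breakdown and its inhibitors, 4 rose and 3 fell (5 higher and 2 lower with library totals). The shares of all genes were 18.2% higher and 18.9% lower (49% and 6.75% with library totals). The inhibitor gene Timp1 stood at 0.83, 0.61 and 0.59 CPM in WT replicates 1 to 3 and at 9.53, 4.91 and 8.52 CPM in mKO replicates 1 to 3, without overlap (log2 3.50, SE 0.29, edgeR adjusted p = 3.04e-06). Timp3, an inhibitor bound to the matrix, fell from 110.1 ± 9.16 to 57.9 ± 10.5 CPM (SD, n = 3, log2 -0.93, SE 0.14, adjusted p = 0.000226). Among the proteases, the membrane-bound collagenase gene Mmp14 rose by a log2 of 0.87 (SE 0.15, adjusted p = 0.000564) and the gelatinase gene Mmp9 fell by 1.73 on the log2 scale (SE 0.33, adjusted p = 0.00129).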

How the data were processed

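RNA was sequenced from 3 WT and 3 mKO gastrocnemius samples, grouped by the sample titles. The deposited values are raw counts per Ensembl gene, 1 table per library, summed over the exons that the tables list with their length, per the file headers. The submitters' processing notes name Trimmomatic 0.36, STAR 2.5.2b, Subread 1.5.2 with its featureCounts, and the build GRCm38. The sources used here do not give strand, pair or multi-mapping settings, so counts of overlapping and antisense genes are uncertain. Symbols were matched by gene identifier (48970 of 49315 genes).

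The main test was edgeR 4.0.16 (R 4.3.3), quasi-likelihood, after TMM scaling and edgeR's default filter on low counts (16650 genes left), with Benjamini-Hochberg adjustment. Unnamed adjusted p-values are edgeR's. Shares and chain ratios were tested by exact two-sided permutation. The edgeR step was run on simulated counts, with WT levels in both groups and as many genes raised as lowered. Such counts do not test the scaling between groups of unlike composition. The permutation step was checked only on made-up values. DESeq2 1.42.0, limma-voom 3.58.1, other scaling, filters and thresholds, a replicate block and leaving out each library were the alternatives. Within each group all library pairs differed by more than sampling noise (chi-square per degree of freedom 20.9 to 57.7). Biological variation between replicates was 16.1% (edgeR's coefficient), and called folds over all genes started at 1.21.

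Collagen classes and the lists of partner and marker genes were chosen with earlier results of these data known. Every collagen gene may be named. Values per library are given for those called with a fold of at least 1.5 and the 4 highest per kilobase in each class, and for further genes where single libraries stood apart, chosen after their values were seen. Up to 4 called genes of each partner list, by lowest p, are named.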

Additional observations from a re-analysis of the deposited data

How the results depend on the processing

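Scaling mattered most. With library totals in place of TMM, 8151 of all genes were called higher and 1124 lower, 28 collagen genes higher and 2 lower, 10 fibrillar genes higher, 3 basement membrane genes higher and 0 lower, and 15 other collagen genes higher, and uncalled genes changed sign: log2 0.22 for Col20a1, 0.02 for Col4a6, 0.13 for Col4a5, 0.39 for Col25a1, 0.20 for Col6a6 and 0.34 for Col17a1. At an adjusted p under 0.01, 1867 of all genes, 3 fibrillar genes and 4 other collagen genes were higher and 1 basement membrane gene was lower. DESeq2, limma-voom and a minimum of 1 CPM in 3 libraries each called 1 basement membrane gene higher, and among type IV chains alone 1 was lower. With limma-voom the log2 difference was 0.11 for Col25a1 and -0.0033 for Col11a2. Leaving out each library in turn gave 3 to 8 fibrillar genes higher, 0 to 2 basement membrane genes higher and 1 to 3 lower, and 4 to 8 other collagen genes higher. The log2 difference reached 0.29 for Col25a1 and 0.40 for Col17a1, -0.0078 for Col18a1, -0.0071 for Col22a1 and -0.52 for Col11a2, none of them called; the other ends of these ranges were -0.49, -0.92, 0.23, 0.25 and 0.39. Of the 14 called collagen genes, Col3a1, Col5a1, Col5a2, Col6a3, Col8a1, Col16a1 and Col26a1 were called higher, and Col7a1 and Col9a1 lower, in all 13 alternatives. The class shares kept their direction, with no overlap of groups, when counts were not divided by exon length. The collagen share of counts did so without mitochondrially encoded and the most abundant genes. Leaving out single libraries could not reverse shares whose full groups did not overlap, so it is no check of them. The exact p of these shares cannot go below 0.1 and says nothing about stability. Calls were lost elsewhere for causes that were not tested.

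Deviations of libraries with the same replicate number correlated at 0.018, -0.0020 and 0.022. These values show no strong shared signal, but they cannot settle whether the samples were paired, which the labels do not say. With the replicate block, 2707 of all genes were higher and 2812 lower, and 8 collagen genes were higher and 5 lower; the calls of Col12a1 (adjusted p = 0.0541) and Col24a1 (0.0505) were lost and Col4a3 was called lower (0.0434). In that block fit the log2 difference was 0.0258 for Col25a1 and -0.0063 for Col11a2.

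At 32108684 to 42344238 counts per library, Col9a2, Col9a3 and Col6a4 (25 to 41 counts in all) were too low to test, and intervals of count ratios cover counting error only.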

Other observations

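Collagen genes that lie next to each other did not share one pattern. Col3a1 and Col5a2, which lie tail to tail on chromosome 1 with 24614 bases between them, both rose. Col9a1 and Col19a1, 9205 bases apart on the same chromosome, differed, since Col9a1 fell and Col19a1 (3.87 ± 1.14 CPM in WT and 5.07 ± 1.66 in mKO, SD, n = 3) was not called. Col4a5 and Col4a6, which start 1309 bases apart on chromosome X, were not called.

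Among the 40 tested collagen genes, mKO replicate 3 was the highest mKO library for 21, mKO replicate 2 for 15 and mKO replicate 1 for 4. Over all genes tested the shares were 29.1%, 35.2% and 35.7%. In WT the highest library was replicate 2 for 21 collagen genes, replicate 3 for 10 and replicate 1 for 9, and WT replicate 3 was the highest for 0 of 11 fibrillar genes. These counts share libraries and genes, and no test was made of them.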
